A study of Homo sapiens with 2 samples.

Results

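The genes described here are 42 genes of mitosis, taken by symbol from a fixed list of mitotic kinases, cyclins, spindle checkpoint genes, kinesins and kinetochore genes. All 42 were found among the 58884 Ensembl gene IDs that both libraries list. RNA was measured by sequencing in T24/R cells, an adherent bladder line that by its name derives from the urothelial carcinoma line T24. One library comes from cells given 1600 nM THZ1 for 6 h and the other from cells given DMSO as control for 6 h. The series title speaks of chemoresistant urothelial carcinoma, but the labels do not spell out what sets T24/R apart, and no parental T24 library enters the comparison. THZ1 binds CDK7 covalently and blocks this kinase, which phosphorylates RNA polymerase II within TFIIH and activates cell cycle CDKs, and it also acts on CDK12 and CDK13. With 1 library per condition, differences were not checked against replicates and p-values are absent.

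Entry into mitosis is driven by CDK1 bound to A- and B-type cyclins, with the Aurora and Polo kinases acting on centrosomes, chromosomes and the spindle. Kinetochores built on CENP-A chromatin bind microtubules through the NDC80 complex, and the spindle checkpoint holds back CDC20 until each chromosome is attached. Transcripts of these genes build up in G2 under the transcription factors B-MYB and FOXM1, and proliferating carcinoma lines carry them at high levels.

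The DMSO library held 18445831 counts and the THZ1 library 18313827. Ratios are given as log2 of THZ1 over DMSO after TMM scaling, which sets the libraries to a common level for most genes, with a 95% exact Clopper-Pearson interval that covers counting error only. Genes were tested where either library had at least 30 counts. They are called lower or higher where the ratio reached 2-fold and its interval did not include 1. The median log2 ratio of all 12457 tested genes was −0.13. Mitochondrially encoded mRNAs took 6.6% of the DMSO counts and 14.9% of the THZ1 counts. Of the markers of the labelled tissue, the keratin gene KRT18 had 696 counts in DMSO and 494 in THZ1, whereas EPCAM had 0 and 3, CDH1 2 and 3, and the 8 urothelial markers 39 and 24 in sum. The mesenchymal markers VIM, CDH2 and FN1 summed to 78461 and 98518 counts, and leukocyte markers to 2 and 4. The part of the mitochondrial share in the ratios was not tested. In bulk RNA, fewer cells in G2 or mitosis and less RNA of a gene per cell cannot be told apart.

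On TMM scaling, most of the mitosis genes stayed within 2-fold after 6 h of THZ1. By the ratio itself 5 regulators were lower by more than 4-fold, beside 8.64% of all tested genes. Only for CDCA8, the lowest of the 5, did the interval also lie beyond 4-fold (upper bound −2.24). Scaling to the upper quartile brings CDCA8 to −1.97, short of 4-fold. TMM-scaled ratios are relative to the bulk of genes and give no absolute amount of RNA per cell. Of the 41 tested members, 11 were lower (26.8%), 1 was higher and 29 were neither. The background among all tested genes was 23.7% lower and 7.47% higher, so the share of lower members is near that of the table. The median log2 ratio of the members was −0.26 (quartiles −1.11 and 0.09), beside −0.13 for all tested genes and −0.17 for tested protein-coding genes. Among the 3510 genes with a mean of 1000 or more scaled counts over both libraries, 8.80% were lower and the median was 0.25. Of the 31 members at that level 6 were lower (19.4%), and the median was −0.15. That mean includes the counts being compared, so a lower gene can pass through a high DMSO count alone. The difference in shares was not tested, and nothing is read from it. The member outside the tested set was MAD1L1, which encodes the checkpoint partner of MAD2 and had 11 counts in DMSO and 7 in THZ1. Why its counts are so low was not settled, since the annotation release and strand setting used for counting are unknown here.

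**Figure D1:**
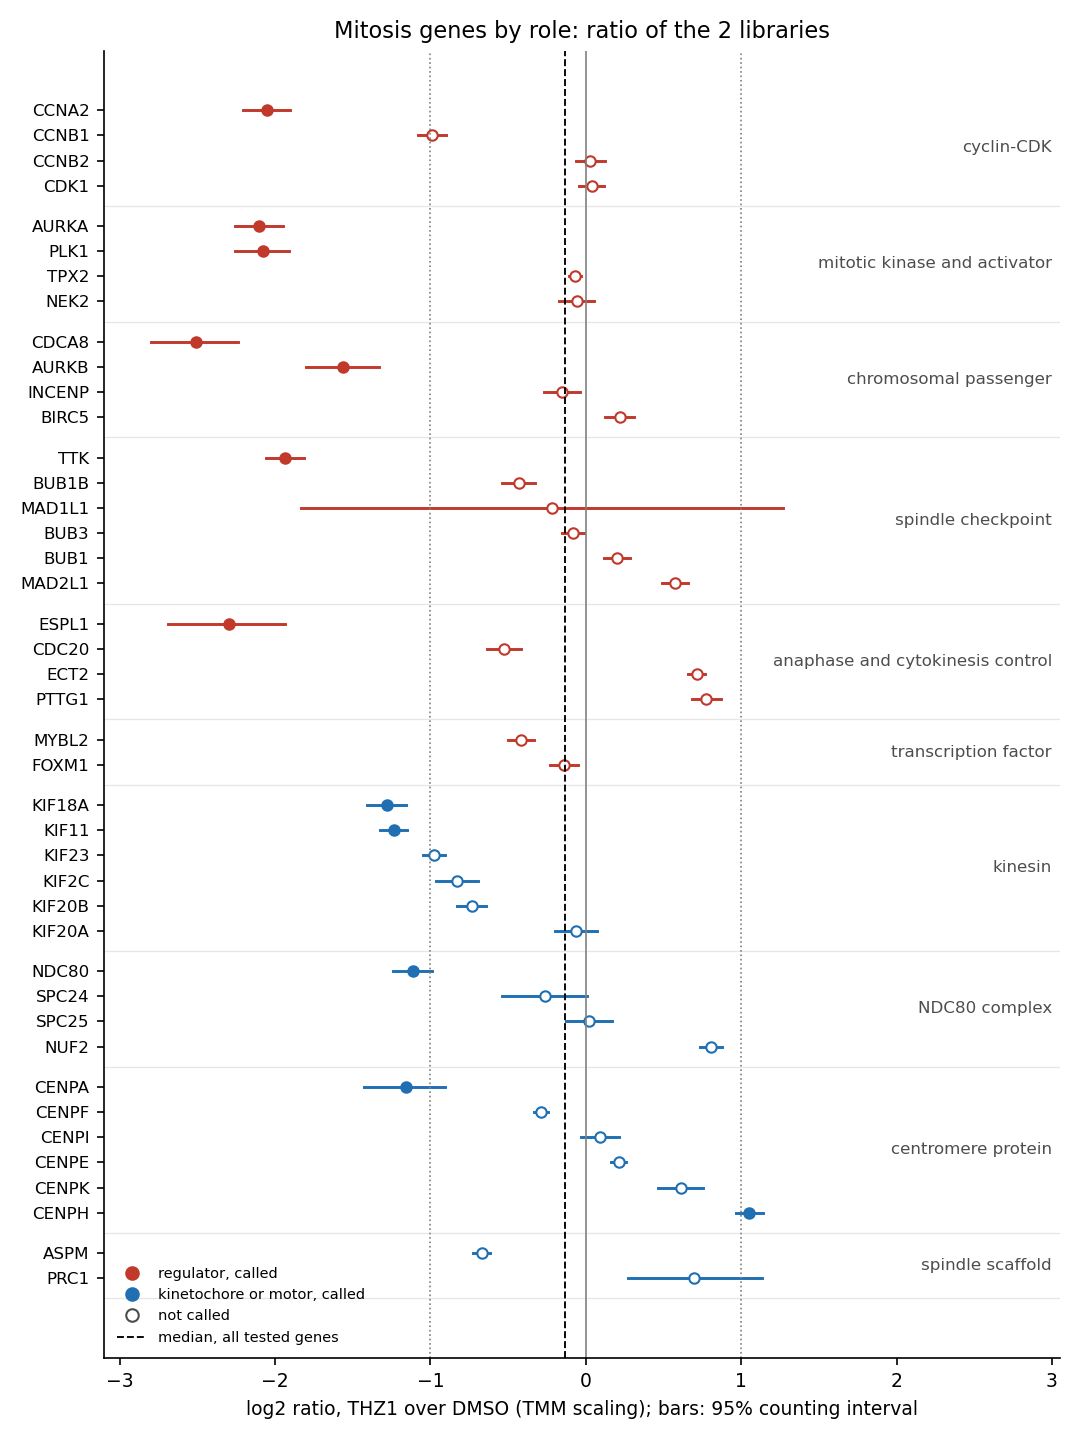
Log2 ratio of THZ1 over DMSO for the 42 genes by role, with TMM scaling. Bars are 95% counting intervals, filled points are called by the 2-fold rule, dotted lines mark 2-fold and the dashed line is the median of all tested genes. The 7 lower regulators lie at −1.56 or below, while the lowest of the listed kinetochore and motor genes, KIF18A, lies at −1.28.

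The members were divided by textbook role into 24 regulators and 18 kinetochore, motor and spindle genes. Of the 23 tested regulators 7 were lower, 0 were higher and 16 were neither. Among the 18 kinetochore and motor genes, 4 had a lower call, 1 a higher call and 13 no call. The medians were −0.15 (quartiles −1.75 and 0.03) for regulators and −0.28 (quartiles −0.94 and 0.18) for kinetochore and motor genes, so the spread of each class was wider than the gap between the medians. Within the list the low ends lay apart, and this difference was not tested. At 4-fold by the ratio itself, 5 regulators were lower (CCNA2, AURKA, PLK1, CDCA8 and ESPL1) and 0 listed kinetochore and motor genes were, beside 8.64% of all tested genes. The gap depends on which genes are listed. Outside the list, 6 of 30 other kinetochore and centromere genes and 2 of 6 other kinesins were lower, beside 23.7% of all tested genes. Among them HJURP (−3.48), KIF18B (−2.29) and CENPC (−2.18) were lower by more than 4-fold. The summed counts of the regulators went from 61384 to 39930 and those of the kinetochore and motor genes from 54137 to 33328, log2 ratios of −0.20 and −0.28. With strict classes, which leave out TPX2, INCENP, BIRC5, CDCA8, ECT2, PRC1 and ASPM, 6 of 18 tested regulators and 4 of 16 kinetochore genes and kinesins were lower. The strict medians were −0.42 for regulators and −0.28 for kinetochore genes and kinesins, so the order of the medians depends on the classes. At 4-fold, 4 strict regulators were lower.

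**Figure D2:**
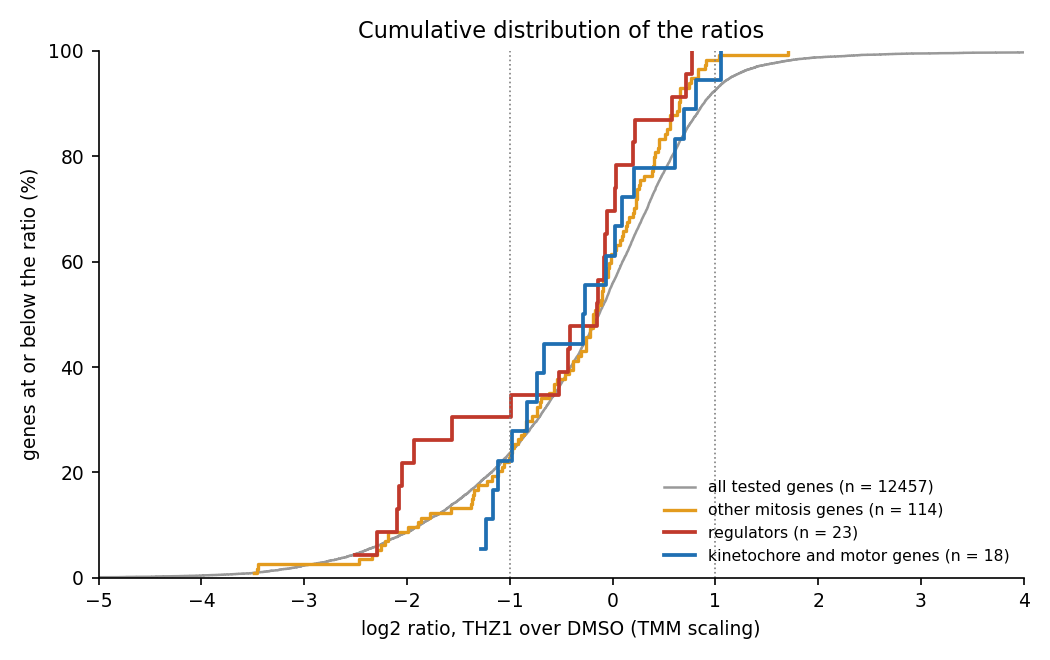
Share of genes (%) at or below each log2 ratio of THZ1 over DMSO, for all 12457 tested genes, 114 other mitosis genes, 23 regulators and 18 kinetochore and motor genes. Dotted lines mark 2-fold, and some tested genes lie outside the range drawn. From −2 to −1 the regulator curve runs above the others, and the kinetochore and motor curve starts at −1.28.

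The CDK1 module split between its cyclins. CCNA2, the A-type cyclin that acts from S phase to early mitosis, had 2307 counts in DMSO and 415 in THZ1, or 108 and 26.1 TMM-scaled CPM (counts scaled by library size). The level was 4.14-fold lower (−2.05, −2.21 to −1.90). CCNB1, the main cyclin of mitotic entry, had 3613 and 1357 counts and lay just inside 2-fold at −0.99 (−1.08 to −0.90). CCNB2, the other B-type cyclin, had 2153 and 1637 counts and a ratio of 0.03 (−0.07 to 0.12). The kinase gene CDK1 itself was close to CCNB2, with 2831 and 2167 counts and a ratio of 0.04 (−0.04 to 0.12). CCNA2 shares 9.08% of its exonic bases with EXOSC9 on the opposite strand, a gene with 1832 and 783 counts, so some reads cannot be told apart without a strand setting.

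Of the 8 members that encode protein kinases (CDK1, AURKA, AURKB, PLK1, NEK2, TTK, BUB1 and BUB1B), 4 were neither and 4 were lower, against a background of 23.7% lower in the table. The grouping was made after the values were seen, so nothing is read from this count. AURKA, which matures centrosomes and builds the spindle, had 2308 and 401 counts, or 108 and 25.3 CPM, and was 4.29-fold lower (−2.10, −2.26 to −1.95). PLK1, the Polo kinase of mitotic entry and centrosome maturation, had 1825 and 322 counts and was 4.22-fold lower (−2.08, −2.26 to −1.91). TTK, the MPS1 kinase that starts checkpoint signalling at kinetochores, had 3329 and 649 counts and was 3.82-fold lower (−1.94, −2.06 to −1.81). In these genes and in CCNA2 the THZ1 library held roughly the same low fraction of the DMSO level. NEK2, a centrosome-separating kinase, had 1610 and 1153 counts and a ratio of −0.06 (−0.17 to 0.05). TPX2, the spindle factor that binds and activates Aurora A, had 11358 and 8073 counts and a ratio of −0.07 (−0.11 to −0.03).

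The chromosomal passenger complex joins Aurora B to INCENP, survivin and borealin and corrects faulty attachments at centromeres. Its genes did not move together. CDCA8, which encodes borealin, had 924 counts in DMSO and 121 in THZ1 and was 5.68-fold lower (−2.51, −2.80 to −2.24), the lowest ratio of all members. AURKB, the catalytic subunit, had 748 and 189 counts and was 2.95-fold lower (−1.56, −1.80 to −1.33). The scaffold gene INCENP had 1536 and 1029 counts and a ratio of −0.15 (−0.27 to −0.04). BIRC5, which encodes survivin, had 2114 and 1833 counts and a ratio of 0.22 (0.13 to 0.31).

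In the spindle checkpoint, TTK was the 1 lower gene among 5 tested. BUB1, the kinase that recruits other checkpoint proteins, had 2422 and 2077 counts and a ratio of 0.20 (0.12 to 0.29). BUB1B, which encodes the checkpoint protein BUBR1, had 1996 and 1103 counts and a ratio of −0.43 (−0.54 to −0.33). BUB3, the adaptor of both, had 3683 and 2594 counts and a ratio of −0.08 (−0.16 to −0.01). MAD2L1, whose product inhibits CDC20, had 2157 and 2399 counts and a ratio of 0.58 (0.49 to 0.66).

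Of the 4 genes of anaphase and cytokinesis control, ESPL1 was lower and 3 were neither. ESPL1 encodes separase, the protease that cuts cohesin, and had 463 counts in DMSO and 70 in THZ1. It was 4.91-fold lower (−2.30, −2.69 to −1.94). PTTG1 encodes securin, the inhibitor of separase, and had 1685 and 2152 counts, a ratio of 0.78 (0.68 to 0.87) and the highest value among regulators. CDC20, the activator of the anaphase-promoting complex, had 1909 and 989 counts and a ratio of −0.53 (−0.64 to −0.41). ECT2, the exchange factor that activates RhoA for cytokinesis, had 4633 and 5667 counts and a ratio of 0.71 (0.66 to 0.77). The transcription factor genes of the G2 programme were both within 2-fold. FOXM1 had 2519 and 1708 counts (−0.14, −0.23 to −0.05) and MYBL2, which encodes B-MYB, had 3250 and 1818 (−0.42, −0.50 to −0.33). FOXM1 shares 15.9% of its exonic bases with ITFG2 on the opposite strand, which had 205 and 94 counts.

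On GRCh38, the 7 lower regulators lie on 7 chromosomes. CCNA2 (ENSG00000145386) spans chromosome 4 from 121816444 to 121823933, AURKA (ENSG00000087586) chromosome 20 from 56369389 to 56392337 and PLK1 (ENSG00000166851) chromosome 16 from 23677656 to 23690367. AURKB (ENSG00000178999) spans chromosome 17 from 8204733 to 8210600 and CDCA8 (ENSG00000134690) chromosome 1 from 37692418 to 37709719. TTK (ENSG00000112742) spans chromosome 6 from 80003887 to 80042527 and ESPL1 (ENSG00000135476) chromosome 12 from 53268299 to 53293643. Counts cover whole genes, so no value belongs to a single exon or UTR.

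Of the 6 KIF genes 2 were lower by the rule and 4 were neither, with ratios below 0 on this scaling. CENPE, a kinesin grouped here with the centromere proteins, lay above 0 at 0.21. KIF11, the tetrameric Eg5 motor that pushes spindle poles apart, had 4660 counts in DMSO and 1475 in THZ1 and was 2.36-fold lower (−1.24, −1.32 to −1.15). KIF18A, which limits chromosome oscillation at plus ends, had 2177 and 668 counts and was 2.43-fold lower (−1.28, −1.41 to −1.16). KIF23, the motor of centralspindlin, had 5561 and 2109 counts and lay just inside 2-fold at −0.98 (−1.05 to −0.90). The depolymerase gene KIF2C (1541 and 647 counts) and KIF20B (3096 and 1389 counts) had ratios of −0.83 (−0.96 to −0.70) and −0.73 (−0.83 to −0.64). KIF20A, the midzone motor that carries Aurora B in anaphase, had 1072 and 765 counts and a ratio of −0.06 (−0.20 to 0.07). Scaling to the upper quartile brings KIF11 to −0.70 and KIF18A to −0.74, and neither is then lower by the rule.

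The NDC80 complex is a rod of 4 proteins, with NDC80 and NUF2 at the microtubule end and SPC24 and SPC25 at the kinetochore end. NDC80 had 1978 counts in DMSO and 682 in THZ1 and was 2.16-fold lower (−1.11, −1.24 to −0.99). NUF2, its direct partner, had 2758 and 3600 counts and a ratio of 0.81 (0.74 to 0.88). SPC25, with 859 and 650 counts, stood at 0.02 (−0.13 to 0.17), and SPC24, with 290 and 180 counts, at −0.26 (−0.54 to 0.01). NDC80 was not lower by the rule with the upper quartile (−0.58) or when the interval itself had to lie beyond 2-fold.

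Of the 6 centromere protein genes, CENPA was lower, CENPH was higher and 4 were neither. CENPA, the histone H3 variant that marks centromeres, had 495 and 165 counts and was 2.23-fold lower (−1.16, −1.43 to −0.90), or −0.62 with the upper quartile. CENPA was not lower by the rule on that scaling or when the interval itself had to lie beyond 2-fold. Of its exonic bases 6.96% are shared with SLC35F6 on the same strand (1134 and 399 counts, −1.08). CENPH, a subunit of the inner kinetochore, had 1756 and 2719 counts and was 2.08-fold higher (1.05, 0.97 to 1.14). That call was lost with total counts (0.64) and when the interval itself had to lie beyond 2-fold. The CENPH ratio turned to −0.53 on the mitochondrial reference. CENPH's neighbours in the inner kinetochore, CENPK (720 and 820 counts) and CENPI (1230 and 978 counts), had ratios of 0.61 (0.46 to 0.76) and 0.09 (−0.03 to 0.21). CENPE, a kinesin of the outer kinetochore, had 7039 and 6081 counts (0.21, 0.16 to 0.26). CENPF, a large coiled-coil protein of the kinetochore corona, had 10278 and 6289 counts (−0.29, −0.33 to −0.24).

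ASPM, a spindle pole protein, had 8542 and 4008 counts and a ratio of −0.67 (−0.72 to −0.61). PRC1, which bundles midzone microtubules, had only 85 and 103 counts (0.70, 0.27 to 1.13). PRC1 is uncertain because 57.6% of its exonic bases are shared with ENSG00000284946, an overlapping coding gene on the same strand with 341 and 61 counts and a ratio of −2.05 (−2.48 to −1.66).

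Levels per length (TPM, computed from the counts and the merged exonic length of each gene) ordered the members within each library. TPX2 was highest in both libraries, at 601 TPM in DMSO and 315 in THZ1. TPM is a share of all RNA, and the mitochondrial share rose between these libraries. CCNB1 ranked 2 in DMSO (269 TPM) and 11 in THZ1 (74.5 TPM), and CENPH ranked 14 in DMSO (149 TPM) and 2 in THZ1 (170 TPM). CCNA2 went from rank 10 (157 TPM) to rank 31 (20.8 TPM), and AURKA from rank 12 (150 TPM) to rank 34 (19.2 TPM). NUF2 went from rank 11 (157 TPM) to rank 3 (150 TPM). ESPL1 was among the lowest throughout, at 9.94 and 1.11 TPM. Together the 42 genes took 0.626% of all counts in DMSO and 0.4% in THZ1.

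**Figure D3:**
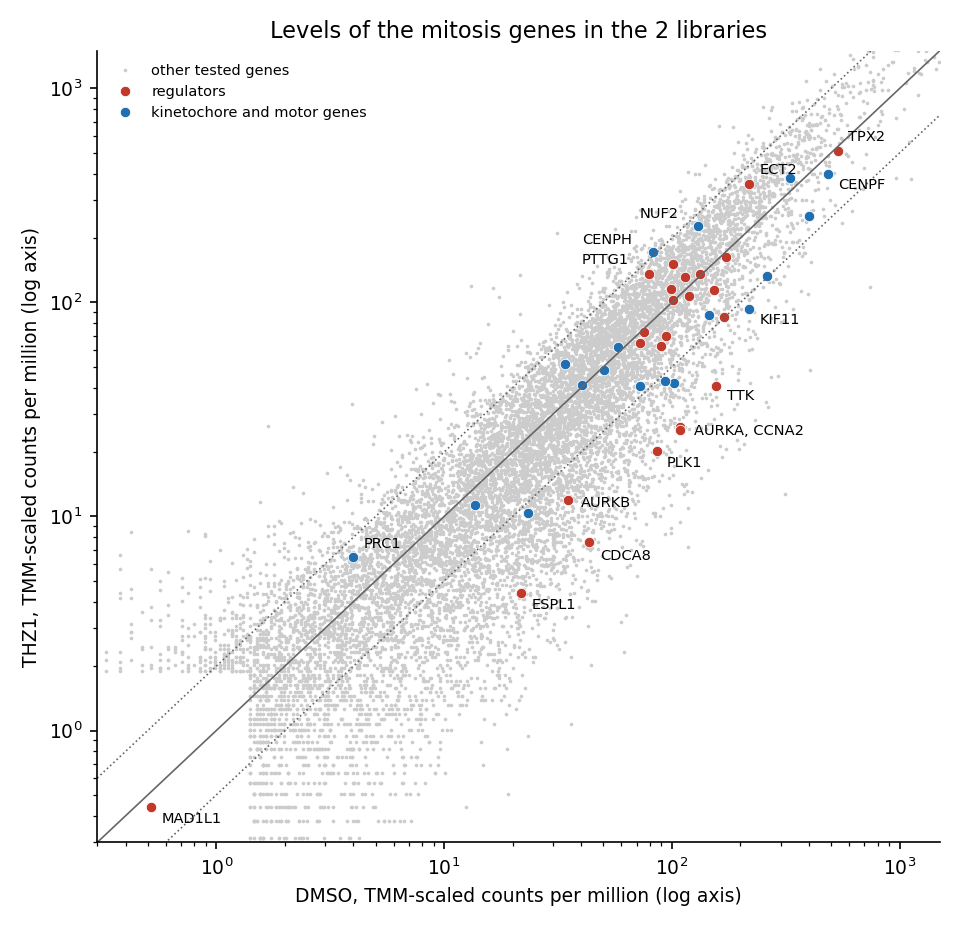
TMM-scaled CPM of each gene in DMSO (x) and THZ1 (y), both on log axes, with the solid line at equality and dotted lines at 2-fold. Genes at 0 or beyond the axes are not drawn. TPX2 lies near equality at 534 and 509, while AURKA, CCNA2, PLK1, CDCA8 and ESPL1 lie below the 2-fold line.

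Ratios between partner genes within a library do not depend on how the libraries are scaled. Securin over separase showed the widest shift. PTTG1 stood at 16.1 times ESPL1 per length in DMSO (14.5 to 17.9) and at 136 times in THZ1 (107 to 175), an 8.45-fold change. Survivin over borealin went from 1.48 (1.37 to 1.6) to 9.80 (8.15 to 11.9), a 6.62-fold change. TPX2 over AURKA went from 4.0 (3.82 to 4.18) to 16.4 (14.8 to 18.1), a 4.09-fold change. NDC80 and NUF2, which form a heterodimer, went from 0.67 (0.63 to 0.71) to 0.18 (0.16 to 0.19). CDK1 over CCNA2 went from 0.873 (0.826 to 0.923) to 3.72 (3.34 to 4.14), and ECT2 over KIF23 from 0.996 (0.958 to 1.04) to 3.21 (3.06 to 3.38).

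Other partners moved less. CDK1 over CCNB2 was 0.937 (0.886 to 0.991) in DMSO and 0.943 (0.884 to 1.01) in THZ1, with a log2 change of 0.01 (−0.11 to 0.13). SPC24 over SPC25 was 0.219 (0.191 to 0.250) and 0.180 (0.151 to 0.212), a log2 change of −0.29 (−0.60 to 0.03). BUB3 moved by less than 1.3-fold against BUB1 (1.22-fold) and BUB1B (1.27-fold). In all, 12 of 23 partner pairs shifted by 2-fold or more, beside 49.6% of all pairs of tested genes with counts in both libraries, so the share for partners is near that of any pair. The paralog pair CCNB2 and CCNB1 shifted 2.02-fold and AURKA against AURKB 1.45-fold.

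**Figure D4:**
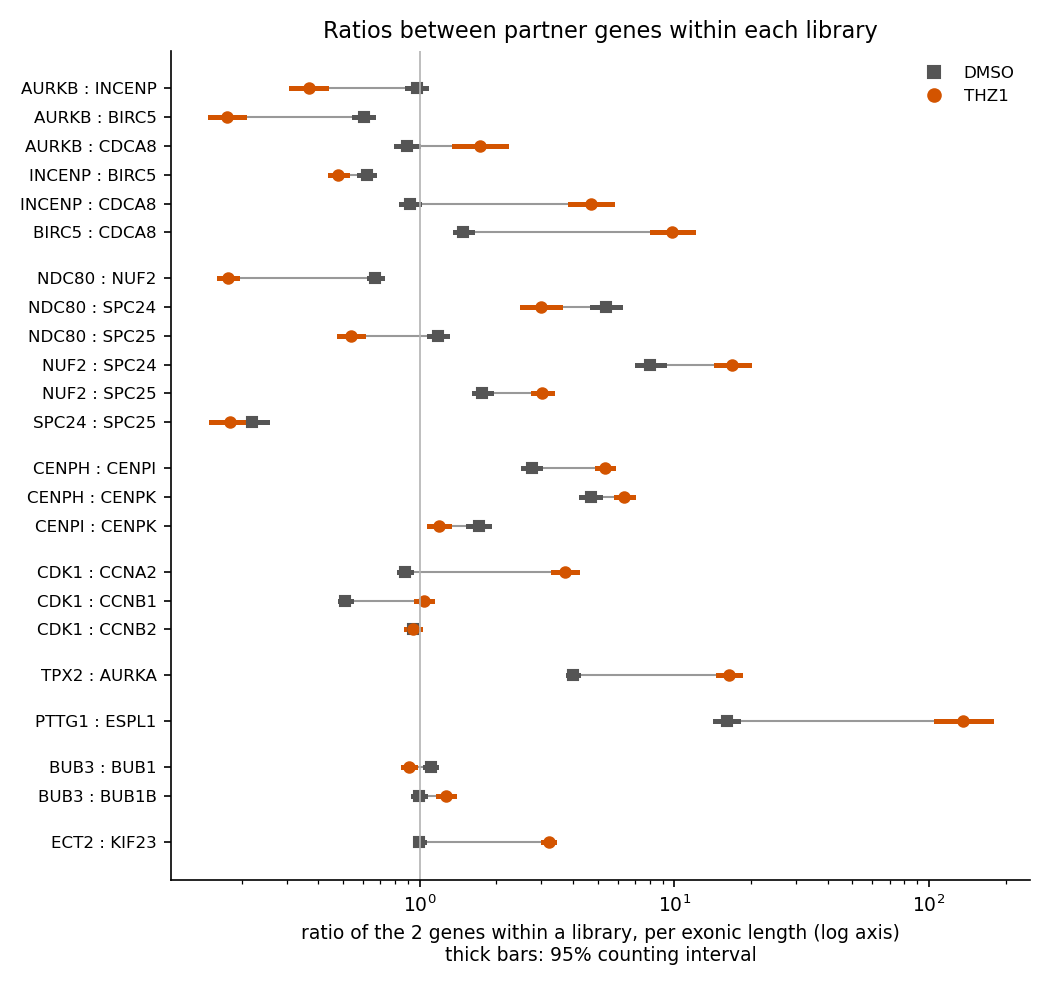
Ratio of the 2 genes of each partner pair within the DMSO library (squares) and the THZ1 library (circles), per exonic length, on a log axis; thick bars are 95% counting intervals. PTTG1 over ESPL1 lies farthest to the right in both libraries, and the CDK1 over CCNB2 symbols nearly coincide.

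Promoters were examined because G2 genes are known to carry a cell cycle homology region (CHR), bound by the MuvB complex, downstream of CCAAT boxes bound by NF-Y. The sequences shown are the 150 bases before the RefSeq start site (GRCh38.p14, read 5′ to 3′ on the strand of the gene) of 3 lower regulators, the lower kinesin KIF11 and, for contrast, CCNB2 and INCENP, which were neither. Capitals mark CHR matches (TTTGAA or TTCGAA) and CCAAT matches on either strand, so that TTCAAA and ATTGG are the same motifs read from the other strand. In CDCA8 a CHR match and a CCAAT match overlap. Every stretch shown holds both motifs, so the stretches do not stand for lower regulators in general. CCNA2 and AURKB, also lower regulators with a RefSeq promoter, are not shown. In the wider window described below, each had 0 CHR matches and 1 CCAAT match. Only TTTGAA and TTCGAA were searched, so 0 matches does not show that a promoter lacks a CHR. The CCNA2 promoter holds CTTGAA, which differs from TTTGAA by 1 letter and was not counted.
PLK1, chr16:23678739-23678888, + strand: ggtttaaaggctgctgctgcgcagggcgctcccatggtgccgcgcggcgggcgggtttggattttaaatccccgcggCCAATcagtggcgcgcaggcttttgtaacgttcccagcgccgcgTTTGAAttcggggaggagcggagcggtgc
ESPL1, chr12:53268149-53268298, + strand: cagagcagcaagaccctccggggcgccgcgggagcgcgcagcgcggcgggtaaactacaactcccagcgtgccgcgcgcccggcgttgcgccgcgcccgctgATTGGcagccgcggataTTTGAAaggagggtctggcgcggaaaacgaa
CDCA8, chr1:37692366-37692515, + strand: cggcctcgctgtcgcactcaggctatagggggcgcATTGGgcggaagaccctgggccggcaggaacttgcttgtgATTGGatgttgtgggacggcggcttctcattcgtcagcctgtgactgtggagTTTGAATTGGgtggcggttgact
KIF11, chr10:92592980-92593129, + strand: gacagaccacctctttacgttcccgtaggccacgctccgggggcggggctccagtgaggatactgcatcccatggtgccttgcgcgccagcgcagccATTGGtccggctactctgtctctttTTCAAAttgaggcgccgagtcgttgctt
CCNB2, chr15:59104996-59105145, + strand: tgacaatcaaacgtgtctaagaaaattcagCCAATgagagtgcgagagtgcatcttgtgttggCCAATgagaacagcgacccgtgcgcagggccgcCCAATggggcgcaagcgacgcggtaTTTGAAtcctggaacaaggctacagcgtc
INCENP, chr11:62123861-62124010, + strand: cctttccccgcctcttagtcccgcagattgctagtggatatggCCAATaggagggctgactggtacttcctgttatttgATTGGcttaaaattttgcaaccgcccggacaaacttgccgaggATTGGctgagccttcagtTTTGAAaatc

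Among the stretches shown, PLK1, ESPL1, KIF11 and CCNB2 share a layout. Their CHR match begins 28 to 31 bases before the start, with a CCAAT match 48 to 73 bases before it. CCNB2, which was neither, has 3 CCAAT matches in the stretch shown, while PLK1, ESPL1 and KIF11, all lower, have 1 each. The RefSeq table gave a promoter for 35 members, all but AURKA, TPX2, BIRC5, BUB3, TTK, FOXM1 and CENPH. In the window from 250 bases before to 50 after the start, a CHR match was present in 22 of 35 (62.9%), beside 16.4% of all 35116 promoters in the table. CCAAT was present in 27 (77.1%, beside 34.6%) and both in 19 (54.3%, beside 6.38%). An E2F core was searched as the letters TTGGCGC and also as TTCGCGC, and further as TTCCCGC and finally as TTGCCGC, on both strands. It was present in 9 (25.7%, beside 13.0%), and its matches can overlap a CCAAT match. Among the 22199 promoters of coding genes, a closer background, E2F was present in 16.1%, CHR in 13.7%, CCAAT in 34.7% and both in 5.48%. Promoters of 98 mitosis genes outside the list also exceeded the table, with CHR in 48.0%, CCAAT in 53.1% and both in 28.6%. Their E2F share, 38.8%, was above that of the members.

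CHR matches were found in 11 of 18 regulators and 11 of 17 kinetochore and motor genes, and CCAAT in 15 of 18 and 12 of 17. Members with lower RNA and the rest both carried them, with CHR in 7 of 9 lower members and 15 of 26 others. In the narrower window from 100 bases before to the start, CHR was present in 6 of the 9 lower members and 6 of the 26 others, beside 4.92% of all promoters. This contrast was not tested, and the lower genes AURKA and TTK had no promoter to search. Matches that cross the start are left out, as in NDC80 (lower) and SPC25 (neither). A match is a description of the letters and not a site of binding.

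Kinetochore and motor genes had longer spans and more exons than regulators. The median gene span was 18388.5 bases for regulators and 53400 for kinetochore and motor genes, with medians of 9.5 and 18 exons. Across the 41 tested members Spearman's rho of the log2 ratio was 0.12 with gene span, −0.15 with exon number and −0.25 with transcript GC content. The same values over all tested genes with an annotation were 0.03, 0.01 and −0.21. These are descriptions across genes of the same 2 libraries. The rho with mean level was 0.31 for members and 0.25 for all tested genes, where level and ratio share their counts.

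Mitosis genes outside the list had a share of lower calls near the background. Of 115 such genes 114 were tested, with 27 lower (23.7%), 2 higher and 85 neither, and a median of −0.18 (−0.38 to −0.04). Of 11 other mitotic kinases and phosphatases 6 were lower, beside 23.7% of all tested genes. The lists are small and were chosen with results known, and their shares were not tested against each other. The 6 were WEE1 (1429 and 192 counts, −2.47), which holds CDK1 inactive, the related kinase gene PKMYT1 (−1.99), the histone H3 kinase gene HASPIN (−2.26), PLK4 of centriole duplication (−1.77), the CDK1-activating phosphatase gene CDC25B (−1.37) and MASTL (−1.35), which encodes Greatwall. The lowest ratios outside the list belonged to HJURP, the chaperone that deposits CENP-A (1986 and 132 counts, −3.48, −3.75 to −3.23), CCNF (521 and 35 counts, −3.46, −4.01 to −2.98) and FBXO5, whose product EMI1 inhibits the anaphase-promoting complex (1352 and 92 counts, −3.45, −3.78 to −3.15).

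Among 30 other kinetochore and centromere genes 6 were lower, including CENPC (−2.18), which links CENP-A chromatin to the kinetochore, and 2 were higher. Those were CENPS (42 and 103 counts, 1.70, 1.19 to 2.27) and CENPW (507 and 778 counts, 1.04, 0.88 to 1.2). KNTC1, a checkpoint protein of the kinetochore, had the highest ratio after them (0.90, 0.85 to 0.96). The other kinesins had KIF18B (−2.29) and KIFC1 (−1.57) lower among 6. In the anaphase-promoting complex and its partners, CCNF, FBXO5 and FZR1 (−2.34), the activator that acts after CDC20, were lower among 19, and the other 16 were neither. Condensin and cohesion genes had CDCA5 (−2.21), which encodes sororin, WAPL (−2.18) and NCAPH (−1.0) lower among 22. The DREAM and MuvB list had LIN54, LIN9, E2F4 and E2F5 lower among 10 tested. The spindle and midzone list had TACC3, TROAP and KNSTRN lower among 16. Of all tested genes 23.7% were lower. The lists of kinetochore and centromere (20%), anaphase-promoting complex (15.8%), condensin and cohesion (13.6%) and spindle and midzone genes (18.8%) lay below that share. Other kinesins (33.3%) and the DREAM and MuvB list (40%) lay above it, with few genes each. These differences from the background were not tested. NCAPH and LIN9 only just reached 2-fold.

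How many members passed depended on what the libraries were scaled to, but 7 calls did not. CCNA2, AURKA, PLK1, AURKB, CDCA8, TTK and ESPL1 were lower by the rule under all 11 settings tried, and all 7 are regulators. A scaling moves every log2 ratio by nearly the same amount, and these 7 have the lowest ratios. Their passing is therefore no separate evidence. AURKB was only just beyond 2-fold with the upper quartile (−1.02). The other 4 lower genes, KIF11, KIF18A, NDC80 and CENPA, fell out with the upper quartile, which moved the median of all genes by 0.54. With total counts the median moved by −0.41 and 16 members were lower, the added genes being CCNB1, KIF20B, KIF23, KIF2C and ASPM. On the mitochondrial reference it moved by −1.58 and 35 members were lower. Of all called genes 76.0% were lower and 24% higher on the scaling reported, against 92.0% and 7.95% with total counts, 36.8% and 63.2% with the upper quartile and 99.1% and 0.873% on the mitochondrial reference.

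**Figure D5:**
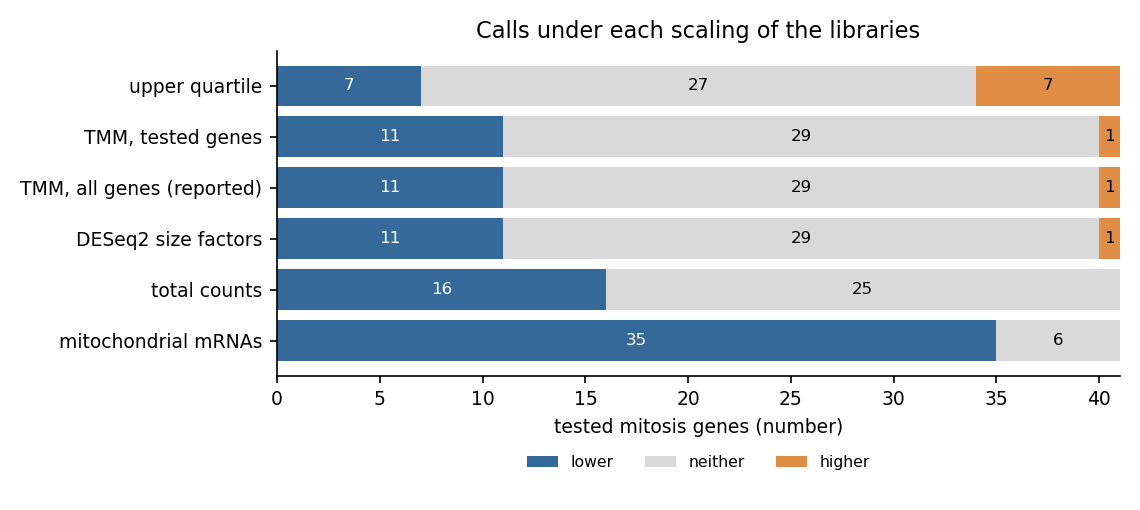
Number of the 41 tested genes called lower, neither or higher under 6 scalings of the libraries. The lower count runs from 7 with the upper quartile through 11 with TMM and DESeq2 size factors to 35 with mitochondrial mRNAs as the reference.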

How the data were processed

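Per the labels' protocols, RNA of the 2 libraries was isolated with TRIzol and libraries were made with a KAPA mRNA HyperPrep kit. The authors deposited raw counts of reads for each gene. HISAT2 2.1.0, featureCounts 1.6.0, Trimmomatic 0.38 and the build GRCh38 appear in the submitters' processing notes. Not given in the sources used here were the release of the annotation, whether strand was used and how multi-mapping reads were handled. Of 58884 IDs, 58472 had a symbol and 58611 were in GENCODE 29, which gave coordinates, lengths and GC content.

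TMM factors (edgeR 4.0.16, R 4.3.3) over all genes gave effective library sizes, and 0.5 was added to each scaled count. Intervals cover counting error only, because each condition has 1 library and no spread between replicates enters. Reads carry no molecular identifiers, so PCR copies would make even these intervals too narrow. Changes between partner genes use the exact conditional odds ratio interval. Alternatives were 5 other scalings (among them DESeq2 1.42.0 size factors and TMM over tested genes, which was added after seeing the data), count minimums of 1 and 100, 5 added counts, thinning and an interval bound of 2-fold. The calling script was checked on simulated counts with known changes, which is no check of the deposited values. Python 3.11.15, numpy 2.4.6, pandas 2.3.3, scipy 1.17.1 and matplotlib 3.10.9 were used.

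The members, roles, partner pairs and other lists were chosen with earlier results of these data known. All members may be named. Of other mitosis genes, the text names the 3 lowest and 3 highest ratios with 100 or more counts and the called genes of lists with few calls. HASPIN, WEE1, PKMYT1, PLK4, CDC25B, MASTL, CENPC, LIN54, LIN9, E2F4 and E2F5 were named after their values were seen, as were the grouping of protein kinases and the neighbouring genes.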

Additional observations from a re-analysis of the deposited data

How the results depend on the processing

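With DESeq2 size factors, a count minimum of 100, 5 added counts or thinning, each count and median over the members and the other mitosis lists was within 1.5 times or within its interval. Total counts gave 0 higher members, 8 lower kinetochore and motor genes, 1 higher gene and a median of −0.59 among the other mitosis genes, and 2.95% higher in the table. The upper quartile gave 7 lower and 7 higher members (median 0.27), 0 lower kinetochore and motor genes, class medians of 0.38 for regulators and 0.26 for kinetochore and motor genes, 15 lower and 19 higher other mitosis genes (median 0.36), and 14.2% lower and 24.3% higher in the table. The mitochondrial reference gave 35 lower and 0 higher members (median −1.85), 21 lower regulators (median −1.74), 14 lower kinetochore and motor genes (median −1.86), 100 lower and 0 higher other mitosis genes (median −1.77), 80.2% lower and 0.706% higher in the table, and −0.53 for CENPH. These shifts follow from the construction of each scaling. An interval bound of 2-fold gave 0 higher members, 2 lower kinetochore and motor genes, 1 higher other mitosis gene and 3.998% higher in the table. A count minimum of 1 gave 13.0% lower in the table, over 27211 genes. TMM over the tested genes gave 4 higher other mitosis genes. In the narrow promoter window 12 members had CHR and 3 had E2F matches, and rho of the ratio with merged exonic length was 0.038. No paired analysis was possible because each group has 1 library. MAD1L1, with 11 and 7 counts, was too shallow to be tested.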

Other observations

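Some members share a promoter region with a gene on the opposite strand, and these neighbours had ratios both near to and far from those of the members. For 8 members, 9 protein-coding neighbours with enough counts start within 1000 bases on the other strand. AURKA and CSTF1, a polyadenylation factor gene, start 34 bases apart, and both were lower, with CSTF1 at 1402 and 111 counts (−3.23, −3.53 to −2.96). CDCA8 and C1orf109 start 169 bases apart, and C1orf109 was lower by less than CDCA8 (803 and 279 counts, −1.10, −1.30 to −0.90). NDC80 and METTL4 start 2 bases apart in GENCODE 29, yet METTL4 had 405 and 258 counts and a ratio of −0.23 (−0.46 to 0.00) beside −1.11 for NDC80. KIF18A (−1.28) and METTL15 (686 and 553 counts, 0.11, −0.05 to 0.28) also differed. FOXM1 (−0.14) was neither while its neighbour TULP3 was lower (1033 and 374 counts, −1.04, −1.22 to −0.87), and its other neighbour RHNO1 was neither (1071 and 600 counts, −0.41, −0.56 to −0.27). KIF20A (−0.06) was neither while BRD8 was lower (1100 and 386 counts, −1.09, −1.26 to −0.92). PTTG1 and SLU7 (0.10, −0.01 to 0.21) and CENPK and PPWD1 (−0.48, −0.64 to −0.32) were within 2-fold. Exons of KIF18A and METTL15 overlap by 61 bases and those of KIF20A and BRD8 by 132, so a few reads cannot be told apart there.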
